A study of Mus musculus with 9 samples.

Results

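The transcripts described here encode the Sm, Lsm and Gemin proteins, which build and hold the small RNA-protein particles of splicing and of mRNA decay. They were measured in the RNA that an antibody to Pum2 precipitated from embryonic mouse cortex. Members were taken by their names, a choice made with earlier results of these data known. They are all genes with an array row of their own whose symbol begins with Snrp, is a numbered Gemin, is Lsm1 to Lsm8 or Lsm10 to Lsm12, or is Smn1, and each was read from its brightest row. This gave 26 of the 22180 genes compared. Snrpa, Snrpf, Snrpn and Gemin4 share their rows with other symbols and were not members. There were 9 arrays in 3 groups, with 3 biological replicates in each. The Pum2 group was RNA bound by a rabbit antibody to Pumilio2, the IgG group was RNA bound by normal rabbit IgG, which is the background of the precipitation, and the Input group was total RNA with no antibody. All 9 came from freshly dissected cortex of CD1 embryos, wild type and 12 to 13 days old, with no transgene or other agent. The labels do not give the number of embryos in a replicate. The study's title names a translational repression complex of neural stem cells, and the comparisons ask which transcripts the Pum2 antibody enriches or leaves behind.

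Sm proteins close into a ring around the spliceosomal small nuclear RNAs, and the complex of Smn1 and the Gemin proteins loads that ring in the cytoplasm. Lsm proteins are their relatives. A ring that contains Lsm8 sits on U6 RNA in the nucleus, whereas a ring with Lsm1 in its place binds the 3′ end of shortened mRNAs in the cytoplasm and promotes their decapping. Pum2 is a Pumilio-family protein that binds mRNAs, mostly in the 3′ untranslated region, and represses them.

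Values are log2 signals that the authors made with RMA, a method that corrects background, normalizes arrays and summarises probes. A difference is the mean of the first group minus that of the second, on the log2 scale, ± its standard error, with 3 arrays per group. Genes were tested with limma in a single fit of all 22180 genes, and a gene is said to have risen or fallen where its p, adjusted over all of these genes, was under 0.05. The array medians over genes lay between 6.06 and 6.10. The median SD of the members was 0.10 in Pum2, 0.121 in IgG and 0.073 in Input arrays, against 0.101, 0.117 and 0.107 over all genes. In Input, all 5 measured markers of radial precursors and all 5 of neurons were at or above the median gene of 6.08, as were 1 of 3 markers of skeletal muscle and 1 of 3 of liver, tissues that were not dissected. The markers of endothelium, meninges and primitive red blood cells were also at or above it, 3 of 3 each, and 2 of 3 for microglia. The 1 gene of the liver list at that level was Ttr, whose Input mean of 6.94 had an SD of 1.74. It varied widely between arrays, and which tissue its signal came from was not tested. Precision is limited by the number of arrays. Probes of Sm genes can also bind RNA of close paralogs and pseudogenes, so single values of this family are less certain.

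Against IgG, the Sm, Lsm and Gemin transcripts split in both directions. Of the 26, 7 rose with Pum2 and 10 fell, while 9 were not called. Over all genes tested, 30.7% were called, 19.4% as higher and 11.4% as lower, against 65.4% of the members. Of the members, 25 lay at or above the median level, and among the 11090 genes at that level 52.1% were called, 34.1% as higher and 18.0% as lower, against 26.9% and 38.5% of the members. The highest difference was that of Lsm1 (0.87) and the lowest that of Lsm5 (-1.14). The median over the 26 was 0.00, beside 0.04 over all genes. Changes of at least 1.5-fold among the called members numbered 1 up and 6 down, where 6.53% and 4.99% of all genes and 12.3% and 7.85% of the brighter ones changed that much. The 3 Pum2 arrays lay wholly above the 3 IgG arrays for 8 members and wholly below for 10, and over all genes the arrays were apart in 41.3%, above in 25.9% and below in 15.4% (64.4% apart among the brighter genes). With arrays centred on their brighter genes the calls became 4 higher and 11 lower, so that 26.7% of the members' calls were higher in place of 41.2%. Over all genes the same centring brought the share of calls that were higher to 49.7% in place of 63.0%, while repeated quantile normalization brought it to 79.1% and that of the members to 37.5%. Without IgG replicate 2 there were 4 higher and 10 lower.

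**Figure D1:**
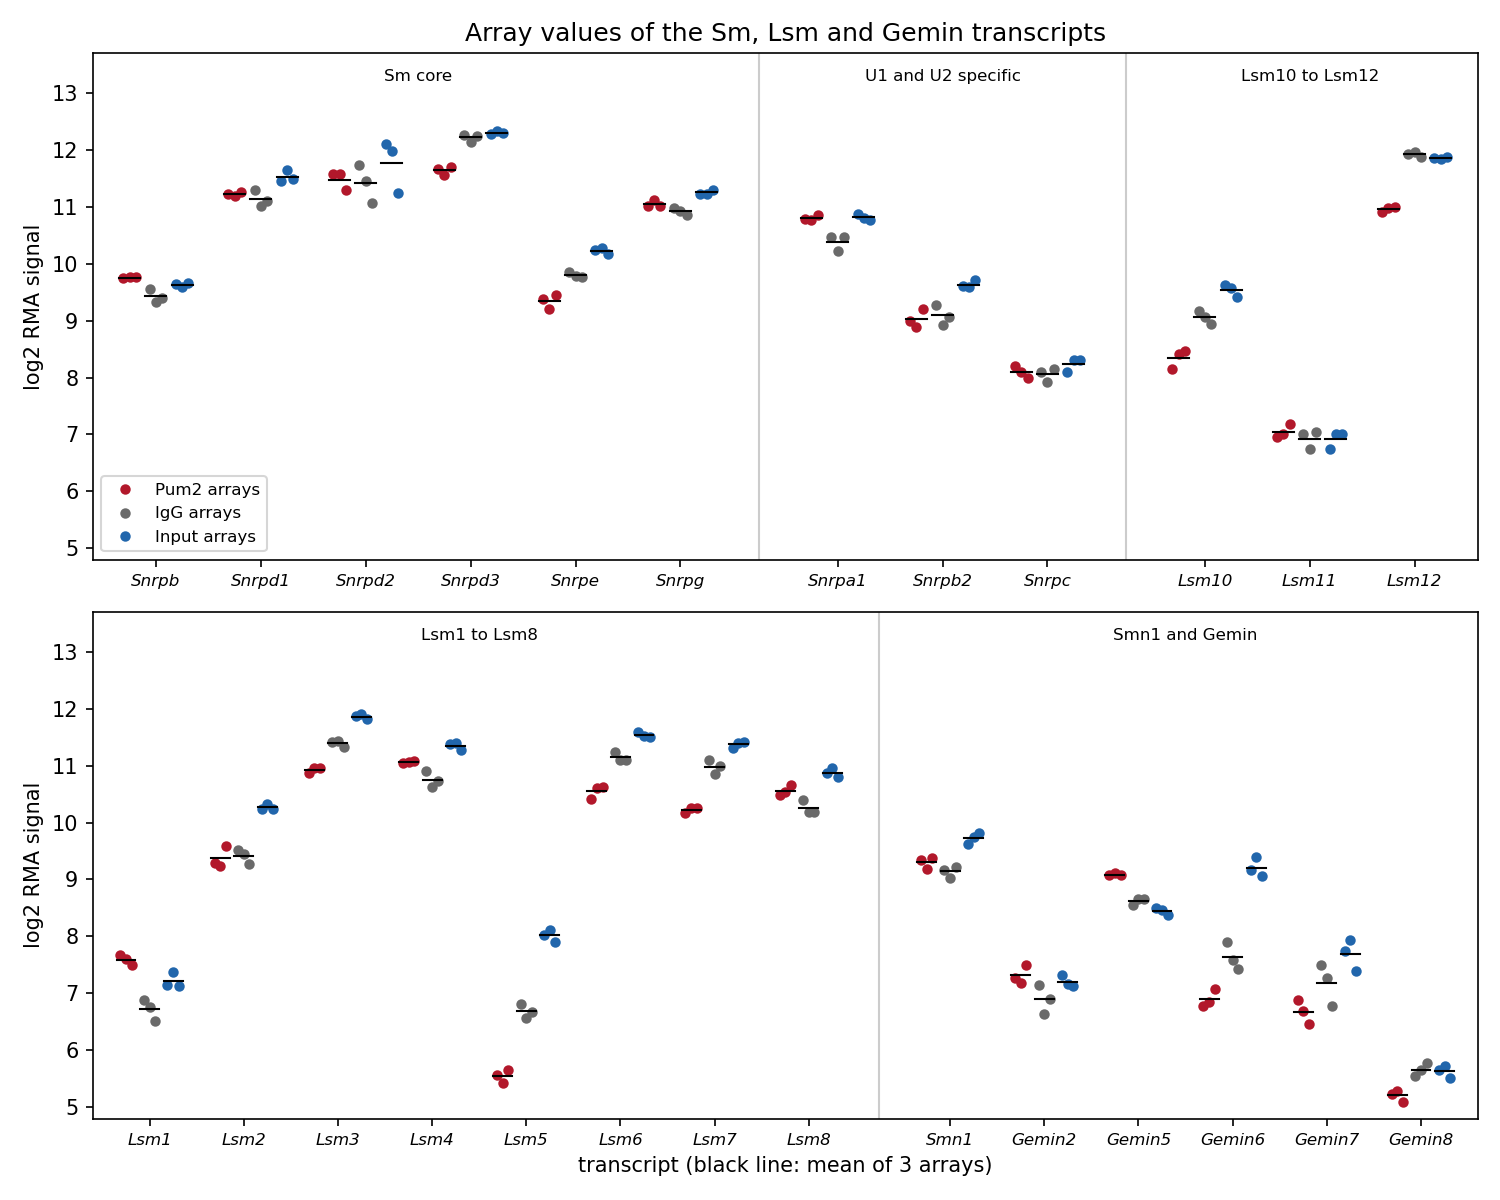
Log2 RMA signal of each of the 26 transcripts on the 3 Pum2 (red), 3 IgG (grey) and 3 Input (blue) arrays, with black lines at group means, arranged by the role of the protein. Lsm5 and Gemin6 step down to their lowest values with Pum2, whereas Lsm1 and Gemin5 are highest with Pum2; heights of different transcripts are not comparable.

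**Figure D2:**
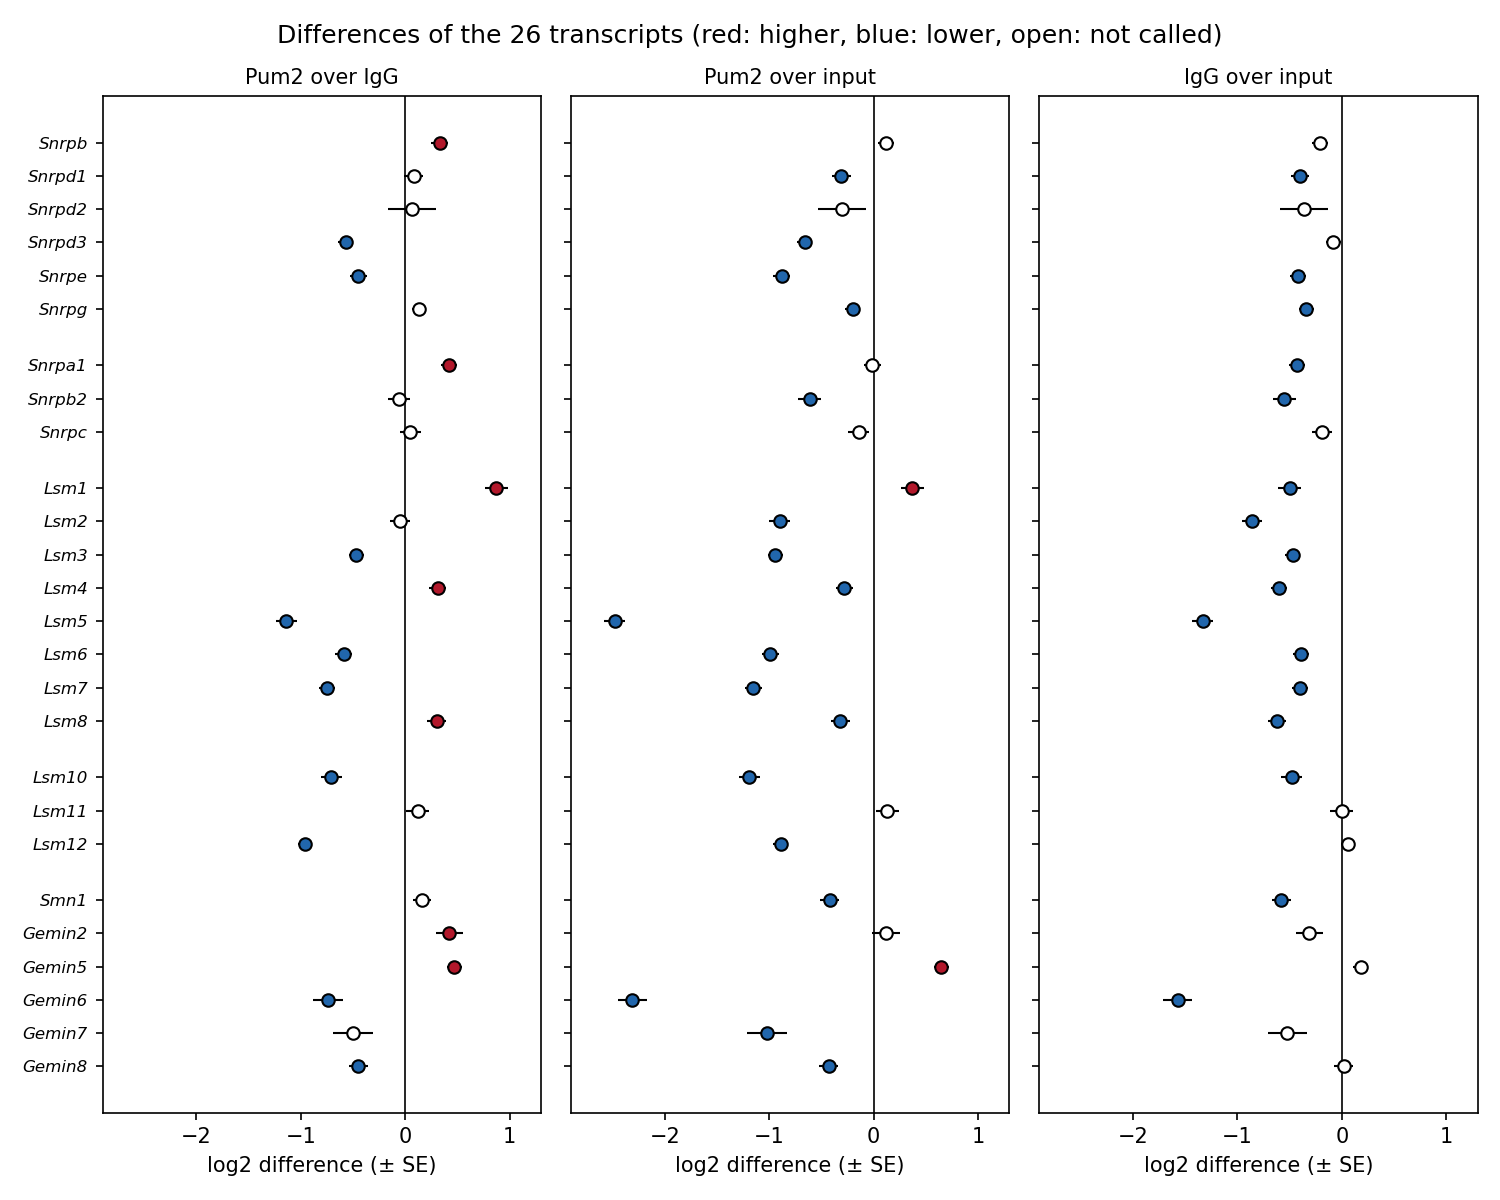
Log2 difference ± SE of the 26 transcripts in panels for Pum2 over IgG (left), Pum2 over input (middle) and for IgG over input (right), with 3 arrays per group, with red for higher, blue for lower and open circles for not called at a limma adjusted p of 0.05. Against IgG 7 are red and 10 blue, and against Input 18 are blue with Pum2 and 16 with IgG.

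Among the Sm core proteins, 1 of 6 transcripts rose and 2 fell against IgG, and the median difference was 0.07. Snrpd3, which encodes SmD3, had 11.67, 11.56 and 11.69 in Pum2 arrays, against 12.26, 12.14 and 12.25 in IgG arrays and 12.27, 12.33 and 12.30 in Input arrays. Every Pum2 array was below every array of the other groups, and the transcript was 1.49-fold lower than in IgG (-0.57 ± 0.07, adjusted p = 0.000212). Snrpe, the gene of SmE, had 9.38, 9.21 and 9.45 with Pum2, against 9.85, 9.79 and 9.77 with IgG and 10.24, 10.27 and 10.17 in Input. These groups did not overlap, and Snrpe was lower than in IgG by a difference of -0.45 ± 0.08 (adjusted p = 0.00165). Snrpb, which encodes the SmB proteins, behaved the other way. Its values were 9.74, 9.76 and 9.77 with Pum2, against 9.56, 9.33 and 9.39 with IgG and 9.65, 9.59 and 9.66 in Input. It rose over IgG by 0.33 ± 0.08 (adjusted p = 0.00788), with all Pum2 arrays above all others. The transcripts of SmD1, SmD2 and SmG were not called. Snrpg, of SmG, stood at 0.13 ± 0.07 with its arrays apart, and Snrpd1, of SmD1, at 0.08 ± 0.09.

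Snrpd2, the gene of SmD2, was the most variable member in Input. Its values were 11.57, 11.57 and 11.29 with Pum2, against 11.74, 11.45 and 11.06 with IgG and 12.11, 11.98 and 11.24 in Input. Replicate 3 was the lowest in each of the 3 groups, and the difference from IgG of 0.06 ± 0.23 was within that spread. Gemin7, Lsm1 and Snrpb2 were the other members whose lowest array had the same replicate number in every group, number 3 for Gemin7 and Lsm1 and number 2 for Snrpb2. How often this held over all genes was not examined, so it is no result about the members.

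Of the 3 members whose proteins belong to the U1 or U2 particle alone, 1 transcript rose against IgG and none fell, also at an unadjusted p under 0.05. Snrpa1 encodes the A′ protein of the U2 particle. It had 10.78, 10.77 and 10.86 with Pum2, against 10.46, 10.23 and 10.46 with IgG and 10.88, 10.80 and 10.76 in Input. Pum2 arrays were thus above IgG arrays and overlapped Input arrays, and the rise over IgG was 0.42 ± 0.08 (adjusted p = 0.0034). Snrpb2, which encodes its binding partner, the B″ protein, differed from IgG by -0.06 ± 0.11, and Snrpc, the C protein of the U1 particle, which helps to recognise the 5′ splice site, by 0.05 ± 0.10.

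The Lsm1 to Lsm8 transcripts held both ends of the range. Against IgG 3 of 8 rose and 4 fell, with a median of -0.26. Lsm5, a subunit of both Lsm rings, had 5.57, 5.42 and 5.65 with Pum2, against 6.81, 6.57 and 6.68 with IgG and 8.03, 8.12 and 7.91 in Input. The groups formed 3 separate steps. Lsm5 was 2.21-fold lower than in IgG (-1.14 ± 0.10, adjusted p = 2.13e-05) and 5.56-fold lower than in Input (-2.48 ± 0.10, adjusted p = 1.4e-07). With Pum2 its level was below the median gene of 6.08.

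Lsm7 had 10.16, 10.26 and 10.25 with Pum2, against 11.09, 10.85 and 10.99 with IgG and 11.31, 11.40 and 11.42 in Input. It was lower than in IgG, with a difference of -0.75 ± 0.08 (adjusted p = 8.8e-05). Lsm6 had 10.42, 10.61 and 10.62 with Pum2, against 11.23, 11.10 and 11.10 with IgG and 11.59, 11.52 and 11.50 in Input, and its difference from IgG was -0.59 ± 0.08 (adjusted p = 0.00038). Both are subunits of the nuclear and the cytoplasmic ring, and both showed the order of Lsm5, lowest with Pum2 and highest in Input. Lsm3, a further shared subunit, had 10.87, 10.95 and 10.95 with Pum2, against 11.41, 11.44 and 11.33 with IgG and 11.87, 11.90 and 11.81 in Input. Its arrays stood in the same order without overlap, with a difference from IgG of -0.47 ± 0.07 (adjusted p = 0.000541).

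Lsm1 is the subunit that marks the cytoplasmic decay ring, and against IgG its transcript had the largest rise of the 26. It had 7.68, 7.60 and 7.50 with Pum2, against 6.89, 6.76 and 6.51 with IgG and 7.14, 7.38 and 7.13 in Input. All Pum2 arrays were above all others, a 1.83-fold rise over IgG (0.87 ± 0.11, adjusted p = 0.000268) and a 1.29-fold rise over Input (0.37 ± 0.11, adjusted p = 0.0275). The call against Input ended without Input replicate 1 (0.33), Input replicate 3 (0.33), Pum2 replicate 1 (0.33) or Pum2 replicate 2 (0.37), and with arrays centred on their brighter genes (0.32).

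Lsm8, the subunit that marks the nuclear U6 ring, had 10.49, 10.53 and 10.65 with Pum2, against 10.40, 10.18 and 10.19 with IgG and 10.87, 10.95 and 10.80 in Input. Lsm4, present in both rings, had 11.04, 11.07 and 11.08 with Pum2, against 10.90, 10.63 and 10.73 with IgG and 11.37, 11.40 and 11.27 in Input. For both, Pum2 arrays lay between the other groups without touching them. Lsm8 was higher than in IgG by 0.30 ± 0.09 (adjusted p = 0.0251) and Lsm4 by 0.31 ± 0.08 (adjusted p = 0.0167). The Lsm8 call against IgG was lost when IgG replicate 2 (0.26) or 3 (0.27) or Pum2 replicate 2 (0.31) or 3 (0.25) was left out, with centring on the brighter genes (0.22) and when quantile normalization was repeated (0.23). The Lsm4 call against IgG ended without IgG replicate 2 (0.25) and with arrays centred on their brighter genes (0.23). Against Input, where both were lower, the Lsm8 call ended without Input replicate 2 (-0.28), Pum2 replicate 1 (-0.28) or Pum2 replicate 2 (-0.30). That of Lsm4 ended without Input replicate 1 (-0.27) or 2 (-0.26), or without Pum2 replicate 1 (-0.27), 2 (-0.29) or 3 (-0.29). Lsm2 differed from IgG by -0.05 ± 0.10, with arrays that overlapped.

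Each Sm protein has an Lsm counterpart at the same place of the ring, and the transcripts of such counterparts were set side by side without a test of their difference. Against IgG, the pairs that moved the same way were Snrpb with Lsm1 (0.33 and 0.87), Snrpb with Lsm8 (0.33 and 0.30) and Snrpe with Lsm5 (-0.45 and -1.14). Snrpd3 and Lsm4 were called in opposite directions (-0.57 and 0.31). In the remaining pairs the Sm transcript was not called. Lsm3 and Lsm7 of these fell beside Snrpd2 (0.06) and Snrpg (0.13), and neither Snrpd1 nor Lsm2 was called.

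**Figure D3:**
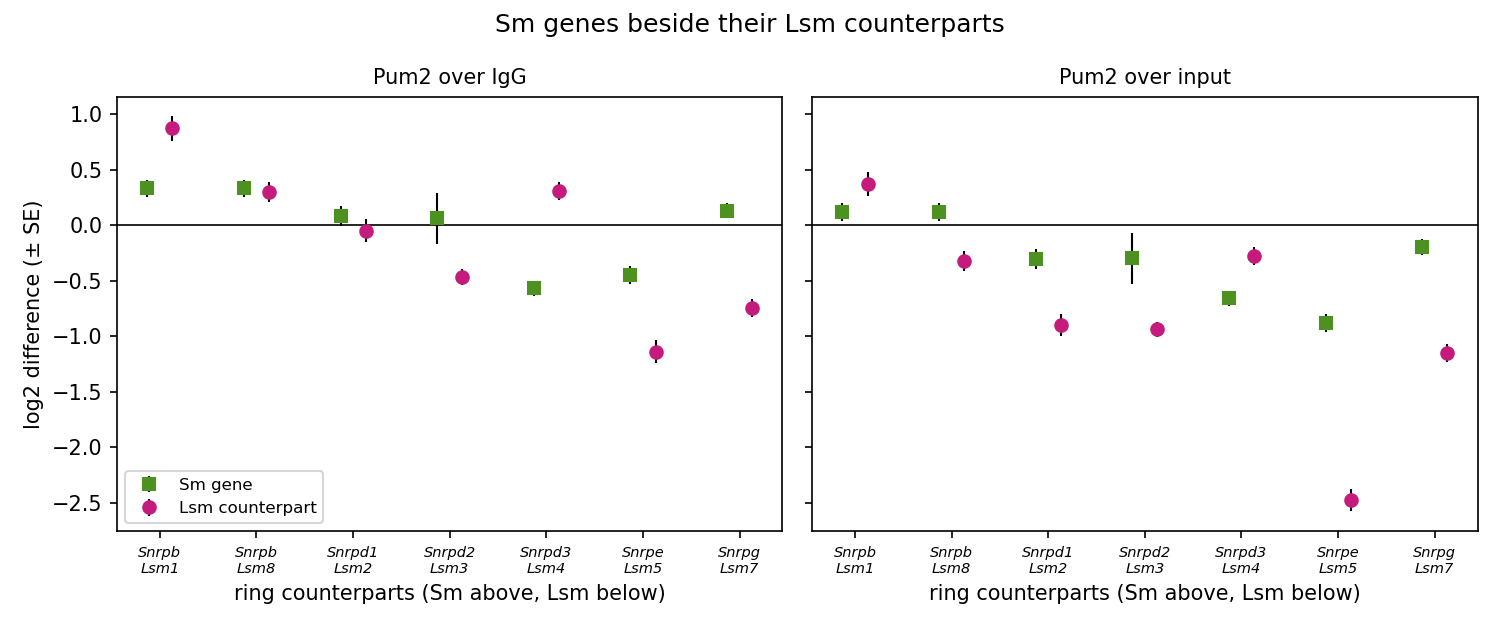
Log2 difference ± SE (3 arrays per group) of each Sm transcript (green squares) and of the Lsm transcript for the same place of the ring (magenta circles), for Pum2 over IgG at left and Pum2 over input at right. Snrpd3 and Lsm4 lie on opposite sides of 0 against IgG (-0.57 and 0.31), and Lsm5 is the lowest point in both panels.

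Of Lsm10 to Lsm12, none rose and 2 fell against IgG, and the same counts held at an unadjusted p under 0.05. Lsm10 takes a place of the ring in the U7 particle, which processes the 3′ ends of histone mRNAs. It had 8.15, 8.42 and 8.46 with Pum2, against 9.16, 9.07 and 8.94 with IgG and 9.62, 9.58 and 9.41 in Input. The 3 groups did not overlap, and the transcript was 1.64-fold lower than in IgG (-0.71 ± 0.10, adjusted p = 0.000549). Lsm11, its partner in the U7 particle, overlapped in all comparisons and differed from IgG by 0.12 ± 0.11. Lsm12, a protein with an Lsm fold that associates with ataxin 2 outside these rings, had 10.91, 10.98 and 11.0 with Pum2, against 11.92, 11.97 and 11.87 with IgG and 11.85, 11.83 and 11.87 in Input. IgG and Input arrays overlapped, and the Pum2 arrays lay well below both. It was 1.94-fold lower than in IgG (-0.96 ± 0.07, adjusted p = 8.59e-06) and 1.86-fold lower than in Input (-0.89 ± 0.07, adjusted p = 5.81e-06). Its difference of IgG from Input was 0.06 ± 0.07 (adjusted p = 0.577).

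Smn1 and the Gemin genes gave 2 higher and 2 lower of 6 against IgG. Gemin5 encodes the subunit that recognises small nuclear RNAs. It had 9.07, 9.12 and 9.07 with Pum2, against 8.55, 8.66 and 8.66 with IgG and 8.49, 8.47 and 8.37 in Input. All Pum2 arrays were above all others, with a rise of 0.47 ± 0.07 over IgG (adjusted p = 0.000665) and of 0.65 ± 0.07 over Input (adjusted p = 5.78e-05). Gemin2, which holds the Sm proteins for assembly, had 7.27, 7.19 and 7.50 with Pum2, against 7.15, 6.63 and 6.90 with IgG and 7.32, 7.16 and 7.13 in Input. Its Pum2 arrays were just above the IgG arrays, and the rise of 0.42 ± 0.13 was near the threshold (adjusted p = 0.0341). It was not called without IgG replicate 2 (0.29) or 3 (0.43), without Pum2 replicate 1 (0.45) or 3 (0.33), with arrays centred on their brighter genes (0.35), or with Input left out of the fit (0.42).

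Gemin6, a subunit with an Sm-like fold that pairs with Gemin7, had 6.78, 6.84 and 7.08 with Pum2, against 7.90, 7.59 and 7.42 with IgG and 9.17, 9.39 and 9.06 in Input. The groups were apart, in the order of Lsm5. Gemin6 was 1.67-fold lower than in IgG (-0.74 ± 0.14, adjusted p = 0.00228) and 4.95-fold lower than in Input (-2.31 ± 0.14, adjusted p = 1.43e-06). Gemin7 had 6.89, 6.69 and 6.46 with Pum2, against 7.49, 7.27 and 6.77 with IgG and 7.75, 7.93 and 7.40 in Input. Its Pum2 and IgG arrays overlapped, and the difference of -0.50 ± 0.19 was not called (adjusted p = 0.081). Without IgG replicate 3 it was called lower (-0.70), as it was with arrays centred on their brighter genes (-0.58) and with only the brighter genes in the fit (-0.50). With the replicate number as a block in the fit it was also called lower (-0.50, limma adjusted p = 0.00766). Gemin8, which links these 2 subunits to Smn1, had 5.24, 5.29 and 5.09 with Pum2, against 5.54, 5.65 and 5.78 with IgG and 5.66, 5.73 and 5.51 in Input. Only the Pum2 arrays stood apart, and the transcript was lower than in IgG (-0.45 ± 0.09, adjusted p = 0.00448). It was the 1 member whose mean lay below the median gene. Smn1, the central subunit, had 9.34, 9.19 and 9.38 with Pum2, against 9.17, 9.03 and 9.22 with IgG and 9.62, 9.74 and 9.81 in Input. It differed from IgG by 0.16 ± 0.09 (adjusted p = 0.199), and both precipitates were below Input.

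Compared with Input, most of these transcripts were lower in both precipitates. With Pum2, 18 of 26 fell and 2 rose, where 34.7% of all genes were called, 13.1% as lower and 21.6% as higher. Among genes at or above the median level 58.8% were called, 21.9% as lower and 37.0% as higher, against 69.2% and 7.69% of the members. With IgG, 16 of 26 fell and none rose, where 18.0% of all genes were called, 9.72% as lower and 8.25% as higher. At or above the median level that was 31.6%, 17.8% as lower and 13.8% as higher, against 61.5% of the members as lower. Gemin5 alone was higher with IgG at an unadjusted p under 0.05 (0.18 ± 0.07, adjusted p = 0.114). The members' median was -0.42 with Pum2 and -0.41 with IgG, beside 0.07 and 0.02 over all genes. Both comparisons use the same Input arrays, so their likeness is no separate result. Pum2 arrays lay wholly below Input arrays for 18 members and wholly above for 3, and over all genes the arrays were apart in 45.3%, below in 16.8% and above in 28.5% (70.9% apart among the brighter genes). IgG arrays were wholly below Input for 18 members and wholly above for 1, where 32.0% of all genes were apart, 16.2% below and 15.9% above (51.3% apart among the brighter genes). Arrays were normalized, so a lower value in a precipitate is less of that transcript relative to the others than in Input. Input comes from all cells of the tissue, and why a transcript was lower in a precipitate was not tested.

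Markers of cell types moved in the same comparisons, those of the dissected precursors and neurons included. In Pum2 over Input, 3 of 5 markers of radial precursors rose and 1 fell, where 37.0% of the genes at or above the median level rose and 21.9% fell. Of the neuronal markers 3 of 5 rose and 2 fell, and 2 of 2 of intermediate progenitors rose. The log2 of the summed signal of radial precursor markers was 12.74 to 12.81 with Pum2 and 12.25 to 12.33 in Input. For neurons it was 12.74 to 12.79 and 12.70 to 12.83, and for intermediate progenitors 11.23 to 11.46 and 10.84 to 10.93. In Pum2 over Input, all 3 markers of primitive red blood cells fell, by differences between -1.17 and -0.36, while all 3 of meninges, 2 of 3 of endothelium and 2 of 3 of microglia rose and none of these fell. The log2 of the summed signal of the red blood cell markers was 10.57 to 11.18 with Pum2, 11.07 to 11.79 with IgG and 11.59 to 11.96 in Input. That of the meningeal markers was 10.20 to 10.39 with Pum2, 9.64 to 9.86 with IgG and 9.67 to 9.72 in Input. For endothelium it was 10.30 to 10.47, 9.58 to 10.07 and 9.81 to 9.94 in the same order of groups, and for microglia 8.22 to 8.33, 7.96 to 8.23 and 7.87 to 8.09. In Pum2 over IgG, 2 of 3 meningeal, 1 of 3 endothelial and 1 of 3 microglial markers rose, and no marker of these or of red blood cells fell. Of the radial precursor markers 2 of 5 rose over IgG and none fell, of the neuronal markers 1 of 5 rose and 1 fell, and 1 of 2 of intermediate progenitors rose. Among genes at or above the median level 34.1% rose and 18.0% fell in that comparison. In IgG over Input, 1 meningeal and 1 microglial marker rose, 1 endothelial marker fell, and no red blood cell marker was called. There 1 radial precursor marker rose and 1 fell, 2 neuronal markers rose and 1 fell, and none of intermediate progenitors was called. The part of these cell types in the members' differences was not tested.

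All 8 Lsm1 to Lsm8 transcripts were lower with IgG than in Input, by differences between -1.33 (Lsm5) and -0.39 (Lsm6), and 7 of the 8 were lower with Pum2, Lsm1 being the exception. Lsm2 shows a member that did not separate the antibodies. It had 9.29, 9.24 and 9.58 with Pum2, against 9.52, 9.45 and 9.28 with IgG and 10.24, 10.33 and 10.24 in Input. Its differences from Input were -0.90 ± 0.10 with Pum2 (adjusted p = 8.69e-05) and -0.86 ± 0.10 with IgG (adjusted p = 0.000527). Of the 6 Sm core transcripts, 4 were lower with Pum2 than in Input and 3 were lower with IgG. Snrpe was lowest of these with Pum2 (-0.88 ± 0.08), and Snrpd3 showed -0.66 ± 0.07 with Pum2 but -0.08 ± 0.07 with IgG (adjusted p = 5.9e-05 and 0.497). Snrpb2 fell to 9.0, 8.89 and 9.20 with Pum2 and 9.28, 8.93 and 9.06 with IgG, against 9.60, 9.59 and 9.71 in Input (-0.61 ± 0.11 with Pum2, adjusted p = 0.00144).

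The Sm calls against Input nearest to the threshold were those of Snrpd1 and Snrpg. Snrpd1 had 11.22, 11.18 and 11.25 with Pum2, against 11.46, 11.64 and 11.49 in Input (-0.31 ± 0.09, adjusted p = 0.0196), and its call ended without Input replicate 2 (-0.26), Pum2 replicate 1 (-0.31) or Pum2 replicate 2 (-0.29). Snrpg had 11.01, 11.11 and 11.02 with Pum2, against 11.23, 11.23 and 11.29 in Input (-0.20 ± 0.07, adjusted p = 0.0429). That call ended without Input replicate 1 (-0.21), 2 (-0.21) or 3 (-0.18), without IgG replicate 2 (-0.20), without Pum2 replicate 1 (-0.19) or 3 (-0.19), and when quantile normalization was repeated (-0.18). The Snrpg call also ended with the replicate number as a block in the fit (-0.20, limma adjusted p = 0.0679). Snrpd2 was not called lower than Input with either antibody (-0.30 ± 0.23 with Pum2, -0.36 ± 0.23 with IgG), but was without Input replicate 3 (-0.57 and -0.63). In IgG over Input, Gemin2 and Snrpb were called lower without IgG replicate 1 (-0.44 and -0.28).

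Genes that work with these proteins were taken from lists drawn up from general knowledge. Of 12 measured assembly partners, 7 rose and none fell against IgG, with a median of 0.30. That is 58.3% called, where 30.7% of all genes and 52.1% of those at or above the median level were called. By direction, 34.1% of those brighter genes were higher and 18.0% lower, against 58.3% and none of this list. At an unadjusted p under 0.05 there were 8 higher and 0 lower in that comparison. Snupn, the import adaptor that carries finished particles to the nucleus, averaged 8.23 ± 0.16 with Pum2, against 6.91 ± 0.20 with IgG and 7.57 ± 0.07 in Input (SD, n = 3 each). It rose over IgG by 1.32 ± 0.12 (limma adjusted p = 2.94e-05), more than any member. Prmt5 and Wdr77, the enzyme and cofactor that methylate Sm proteins, rose by 0.56 ± 0.10 and 0.32 ± 0.07, and Ncbp2 of the nuclear cap-binding complex by 0.35 ± 0.08. Ncbp2 was not called against Input with Pum2 (-0.15 ± 0.08), while with IgG it was lower than Input (-0.50 ± 0.08, limma adjusted p = 0.00176). Snupn was likewise lower with IgG than in Input (-0.66 ± 0.12), but with Pum2 it was higher than Input (0.66 ± 0.12). Against Input, 7 of the 12 rose and none fell (8 and 0 at an unadjusted p under 0.05, median 0.32), with Ncbp1 at 0.52 ± 0.07. That is 58.3% called, all as higher, where 58.8% of the brighter genes were called, 37.0% as higher and 21.9% as lower. In IgG over Input, 3 of the 12 fell and 1 rose, a rise that some alternative runs lost. There 17.8% of the brighter genes fell and 13.8% rose.

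Of 25 measured genes for other spliceosomal proteins, 9 rose and 5 fell against IgG, with a median of 0.27. The 56.0% called was near the 52.1% of the brighter genes. By direction it was 36.0% higher and 20.0% lower, beside 34.1% and 18.0% of those genes. Snrnp40 of the U5 particle rose by 0.60 ± 0.07, Usp39, which acts in joining particles into the spliceosome, by 0.51 ± 0.07, and Sf3a1 of the U2 particle by 0.77 ± 0.10. Against Input, Snrnp40 and Usp39 were lower with IgG (-0.29 ± 0.07 and -0.30 ± 0.07) and higher with Pum2 (0.31 ± 0.07 and 0.21 ± 0.07). Snrnp27, of the particle that joins U4, U6 and U5, was lower by a difference of -0.87 ± 0.08 (adjusted p = 4.63e-05). Against Input 12 rose and 5 fell (7 rose without Input replicate 2), or 68.0% called beside 58.8% of the brighter genes. That was 48.0% higher and 20.0% lower, beside 37.0% and 21.9% of those genes. Snrnp25 of the minor spliceosome stood at -1.43 ± 0.08 and the U5 core protein gene Prpf8 at 0.66 ± 0.08. In IgG over Input 8 of the 25 fell and 2 rose, counts that were smaller in some alternative runs.

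Among 12 partners of the Lsm rings in decay and in histone mRNA processing, 4 rose and 1 fell against IgG (median 0.25), or 41.7% called, below the 52.1% of the brighter genes. By direction that was 33.3% higher and 8.33% lower, beside 34.1% and 18.0% of those genes. Edc4 and Edc3, which enhance decapping, rose by 0.66 ± 0.10 and 0.47 ± 0.10, and Slbp, which binds the histone mRNA stem-loop, by 0.54 ± 0.13. Dcp1b, a decapping subunit, was lower (-0.28 ± 0.08), a call that ended without IgG replicate 1 (-0.29) or 3 (-0.27) or Pum2 replicate 2 (-0.22). Edc4 also rose over Input, by 1.04 ± 0.10. In IgG over Input, 1 of these 12 partners rose and 1 fell, calls that some alternative runs lost. Of 5 small nuclear and related RNAs with a row of their own, none rose and 3 fell against IgG, and none was higher at an unadjusted p under 0.05. Over all genes 11.4% fell in that comparison, and 18.0% of those at or above the median level. The 2 RNAs not called had IgG means of 3.96 and 2.25, below the median gene of 6.08. The U12 RNA gene Rnu12 averaged 7.80 ± 0.08 with Pum2, against 8.61 with IgG and 9.30 in Input, and was lower than in IgG by a difference of -0.81 ± 0.07 (adjusted p = 3.15e-05). Rnu11, of the same minor spliceosome, was at -0.61 ± 0.12, and Rn7sk, an RNA that restrains a transcription kinase, at -1.04 ± 0.11. The medians of the 3 protein lists, 0.25 to 0.30, stand beside 0.00 for the Sm, Lsm and Gemin genes and 0.12 for all genes at or above the median level, and the differences between lists were not tested.

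**Figure D4:**
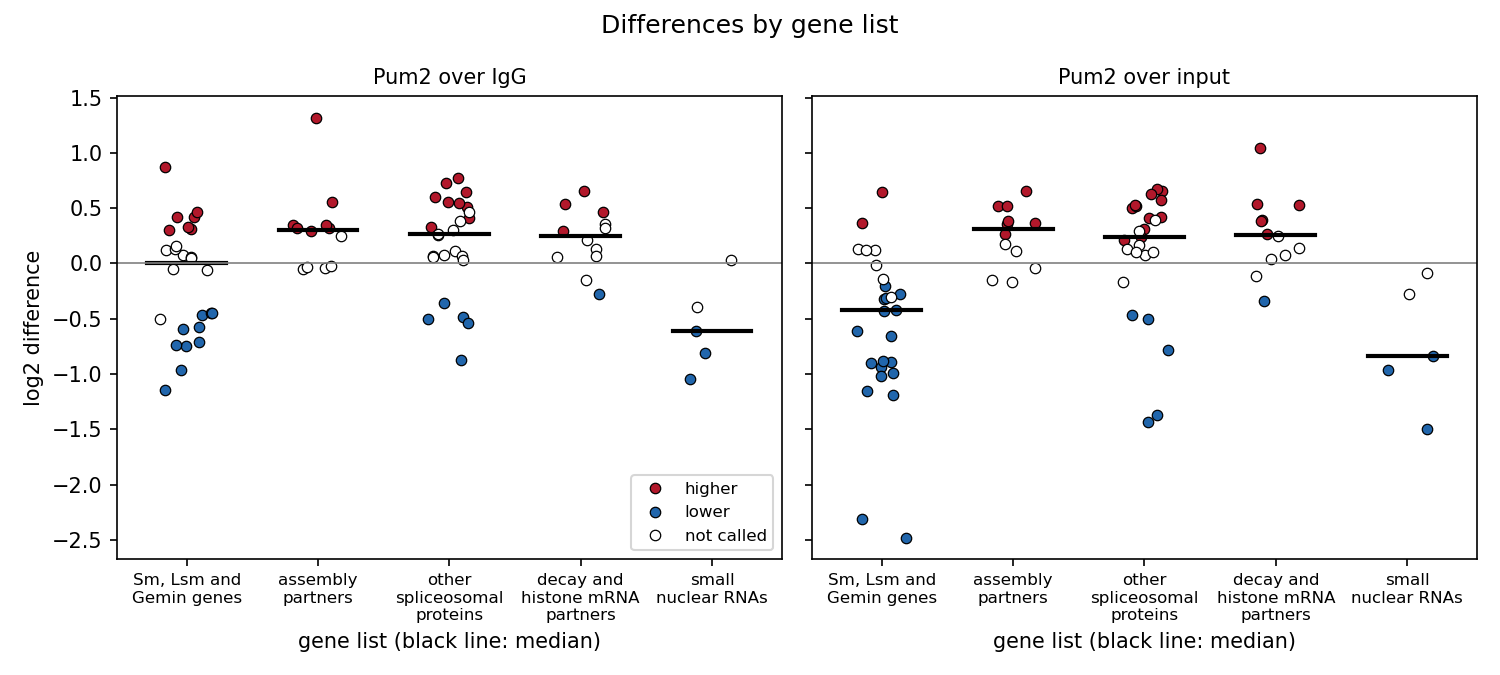
Log2 difference of each measured gene (circles: red higher, blue lower, open not called at a limma adjusted p of 0.05) for the Sm, Lsm and Gemin genes and 4 related lists, with a black line at the list's median, for Pum2 over IgG at left and Pum2 over input at right. The members' median is 0.00 against IgG and -0.42 against Input, while the medians of the 3 lists of partner proteins are above 0 in both panels.

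Of the members, 3 had a further row on the array. The second row of Gemin6 gave differences from IgG and Input of -0.95 and -1.96, where its brightest row gave -0.74 and -2.31. For Lsm7 the second row gave -0.66 and -1.19, where the brightest gave -0.75 and -1.15. For Snrpd1 it gave 0.23 and -0.20, where the brightest gave 0.08 and -0.31. The 2 rows of each gene had the same sign in each of these comparisons.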

How the data were processed

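RNA bound by an antibody to Pum2, RNA bound by normal IgG and total input RNA of embryonic cortex were hybridised to Mouse Gene 2.0 ST arrays, 1 colour each. Per the submitters' processing notes, the deposited log2 values were made by the authors with RMA in Affymetrix Expression Console; for versions and genome build, the sources used here give nothing. Of 41345 rows, 23521 have 1 gene symbol in the platform annotation, 1814 several and 16010 none. The brightest row per symbol gave 22180 genes. All 26 members matched RefSeq of GRCm38.p6 by Entrez ID, and none was filtered out.

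Groups come from the sample titles. Limma 3.58.1 in R 4.3.3 fitted 3 groups without a replicate block (6 residual degrees of freedom), with Benjamini-Hochberg adjustment over all genes, called under 0.05. The labels call the arrays biological replicates, and p-values measure only the spread between them. An exact test of 3 against 3 arrays cannot go below 0.1.

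Members and lists were chosen with earlier results of these data known. By the rule for named genes, all members are named, with up to 4 genes of each list by moderated t. Array values are printed for members called against IgG and for further members that a result turns on. Alternatives were the replicate number as a block, a fit of just the groups compared, only brighter genes, a trended robust prior, repeated quantile normalization, centring on brighter genes, the mean of all rows, a threshold of 0.01, and each array left out.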

Additional observations from a re-analysis of the deposited data

How the results depend on the processing

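Against IgG, 7 members rose and 10 fell. The number that rose was 4 with arrays centred on their brighter genes, 4 at an adjusted p under 0.01, and 4 to 7 when each array was left out in turn. Against Input, 2 rose with Pum2, which became 1 with that centring, 1 at the stricter threshold, and 1 to 2 with an array left out. The other counts moved by less than 1.5 times in every alternative run: lower than IgG 10 to 11, lower than Input 14 to 18 with Pum2 and 13 to 18 with IgG, and 0 higher in IgG over Input. No called member changed sign under any alternative run. Quantile normalization run again moved the median of all genes from 0.04 to 0.19 against IgG and from 0.07 to 0.19 against Input, while the members' medians were -0.04 and -0.37. Relative to all genes, the members therefore stood lower in that setting. The lists of partner genes were run through the same alternatives, a choice made after seeing the data. At an adjusted p under 0.01 the assembly partners that rose numbered 4 against IgG and 4 against Input, and the other spliceosomal genes that rose against Input numbered 7.

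Same-numbered arrays of different groups deviated together weakly but always positively, with r over genes of 0.002 to 0.135 in 9 pairs. In the other 18 pairs r was -0.13 to 0.041. IgG replicate 1 correlated better with Pum2 replicate 3 (0.041) than with Pum2 replicate 1 (0.002). The labels do not say what a replicate number shares, so the main fit had no block. Whether the numbers pair the arrays was left undecided. With the replicate block, 7 rose and 11 fell against IgG, 2 rose and 17 fell in Pum2 over Input, and 17 fell in IgG over Input. Under the block Gemin7 was called lower in Pum2 over IgG and in IgG over Input (-0.50 and -0.52, adjusted p = 0.00766 and 0.0119), and the call of Snrpg in Pum2 over Input was lost (-0.20, adjusted p = 0.0679).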
